A study of Mus musculus with 9 samples.

Results

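The Gimap genes encode the GTPases of immunity-associated proteins, a family of small GTP-binding proteins. All 8 Gimap genes listed in the count files were taken (Gimap1, Gimap3, Gimap4, Gimap5, Gimap6, Gimap7, Gimap8 and Gimap9), of 23238 gene symbols in all. They were chosen by their CPM in these same 9 libraries, compared over the blood and brain groups. Their values in the 3 groups are therefore given as a description, and no p is given for them.

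Gimap proteins share a GTP-binding domain, and they are best known from lymphocytes, where several of them are needed for the survival of resting T and B cells. Gimap1, Gimap3 and Gimap5 carry hydrophobic anchors that hold them in internal membranes, whereas most of the others lack such an anchor. In the mouse, the genes lie side by side in a compact cluster. Monocytes are circulating myeloid cells that enter inflamed tissue, and the family has been studied less in them.

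The study compared sorted monocytes of female wild-type C57BL/6N mice, 12 weeks old, on day 1 of a model of neuromyelitis optica (NMO), an autoimmune disease in which antibodies against the water channel aquaporin 4 (NMO-IgG) injure astrocytes. Nor_Bl_mono were blood monocytes of non-treated normal mice (Blood_Normal in the labels). NMO_Bl_mono (Blood_NMO) and NMO_Br_mono (Brain_NMO) were blood and brain monocytes of mice that had received NMO-IgG with human complement in the striatum of 1 side. Each group had 3 libraries, each from a pool of 5 mice, so the spread between mice was not measured. No blood or brain monocytes of mice injected with a control IgG and no brain monocytes of normal mice were analysed here, so NMO_Br_mono differed from Nor_Bl_mono in both tissue and treatment. Blood cells came from a density gradient for mononuclear cells. Brain cells came from enzymatic dissociation, a Percoll gradient and red cell lysis. Tissue and preparation therefore cannot be told apart. The sort took CD45+CD11b+P2ry12-Ly6C+Ly6G- cells, a gate that does not name a lymphocyte, NK cell or platelet marker.

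The libraries held between 7582571 and 10416076 reads in genes, of which 28.4% to 43.6% belonged to Rn45s, a ribosomal RNA. Values are CPM, the reads of a gene per 1000000 reads of its library, on library sizes scaled by TMM factors. A count of 3 in a library, the floor used here, was worth 0.271 to 0.429 CPM. NMO_Bl_mono replicate 3 stood apart. It had a read in 4567 genes, against 6473 to 11556 in the rest. Genes that reached 50 CPM in replicates 1 and 2 of its group were at or under the floor in it in 22.2% of cases. This proportion, taken for each library against the pair it was grouped with, came to 8.28% for NMO_Br_mono replicate 2 and did not pass 1.94% elsewhere. Counts at 0 in these 2 libraries are read with this in mind, and folds of Gimap genes that rest on NMO_Bl_mono replicate 3 are given with and without it. The 20 classical monocyte markers summed to 5706 to 11103 CPM in NMO_Bl_mono and to 8199 to 15134 CPM in NMO_Br_mono, and none of them was at 0 throughout the brain libraries.

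The 8 genes span 124 kb of chromosome 6 in mm10 (chr6:48647186-48770851, RefSeq annotation of GRCm38.p6). In map order they are Gimap8, Gimap9, Gimap4, Gimap6, Gimap7, Gimap1, Gimap5 and Gimap3, with Gimap6 and Gimap3 on the minus strand and the others on the plus strand. The 250 bases before the annotated start are shown for Gimap4, Gimap6 and Gimap3. They are 3 of the 4 members whose 6 blood libraries all lay above the 3 brain libraries, and each has a single annotated start. Each is from RefSeq, written 5ʹ to 3ʹ on the strand of the gene. Capitals mark AGGAAG, a form of the ETS site (core GGAA), and TGTGGT, the core letters of a RUNX site. Both are marked on either strand, so that they also appear as CTTCCT and ACCACA. The core GGAA alone and other forms of the ETS site are not marked.
Gimap4 (chr6:48684328-48684577, plus strand): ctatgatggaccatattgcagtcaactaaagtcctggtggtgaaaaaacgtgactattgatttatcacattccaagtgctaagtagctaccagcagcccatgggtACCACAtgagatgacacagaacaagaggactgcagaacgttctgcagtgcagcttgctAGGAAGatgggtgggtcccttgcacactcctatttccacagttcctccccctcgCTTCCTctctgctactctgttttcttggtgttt
Gimap6 (chr6:48708245-48708494, minus strand): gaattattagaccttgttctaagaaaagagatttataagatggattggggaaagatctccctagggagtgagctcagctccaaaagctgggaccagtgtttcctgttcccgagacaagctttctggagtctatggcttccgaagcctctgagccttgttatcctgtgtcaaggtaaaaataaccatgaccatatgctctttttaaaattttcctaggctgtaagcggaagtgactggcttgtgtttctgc
Gimap3 (chr6:48770852-48771101, minus strand): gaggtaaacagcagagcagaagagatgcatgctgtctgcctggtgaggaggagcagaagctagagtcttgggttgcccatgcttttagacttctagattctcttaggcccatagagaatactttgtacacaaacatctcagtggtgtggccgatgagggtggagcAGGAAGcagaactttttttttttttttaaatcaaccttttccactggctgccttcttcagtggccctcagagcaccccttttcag

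Of the 9 start windows of the 8 members (Gimap8 has 2 that overlap), 7 held AGGAAG, which was found in 29.5% of all 32851 windows of this length in the table. All members but Gimap6 had AGGAAG in at least 1 window, and in Gimap4 it occurred on both strands, starting 87 and 33 bases before the gene. The window of Gimap6 holds CGGAAG, which has the core GGAA too. Such other forms of the ETS site were not searched. The RUNX letters were found in 3 of the 9 windows, those of Gimap4, Gimap7 and Gimap1, against 14% of all windows. The letters GAAACT, part of the site of interferon regulatory factors, were in the windows of Gimap7, Gimap1 and Gimap5, against 13.5% of all windows. AGATAA, read by factors of the GATA family, was in none of them, against 9.99% of all windows. CTTTGA, read by TCF and LEF factors, was in none either, against 13.8%. All were searched on both strands. A match describes the letters only, and no binding was measured here.

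The Gimap genes together gave many reads in blood monocytes and very few in brain monocytes. Their summed level was 586, 250 and 419.6 CPM in the 3 Nor_Bl_mono libraries, with a mean of 418 ± 168 (SD, n = 3). It was 712, 772 and 1101 CPM in NMO_Bl_mono, with a mean of 862 ± 210 CPM (SD, n = 3). In NMO_Br_mono it was 11.1, 0.851 and 15.8 CPM, with a mean of 9.27 ± 7.66 (SD, n = 3). No brain library came within 10-fold of a blood library, and every NMO_Bl_mono library lay above every Nor_Bl_mono library. By the means, the summed level in NMO_Bl_mono was 93.0-fold that of NMO_Br_mono and 2.06-fold that of Nor_Bl_mono. Without NMO_Bl_mono replicate 3, the mean of NMO_Bl_mono was 742 CPM, 80-fold that of NMO_Br_mono and 1.77-fold that of Nor_Bl_mono. In sorted pools, fewer cells that carry a transcript and less of it per cell cannot be told apart.

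**Figure D1:**
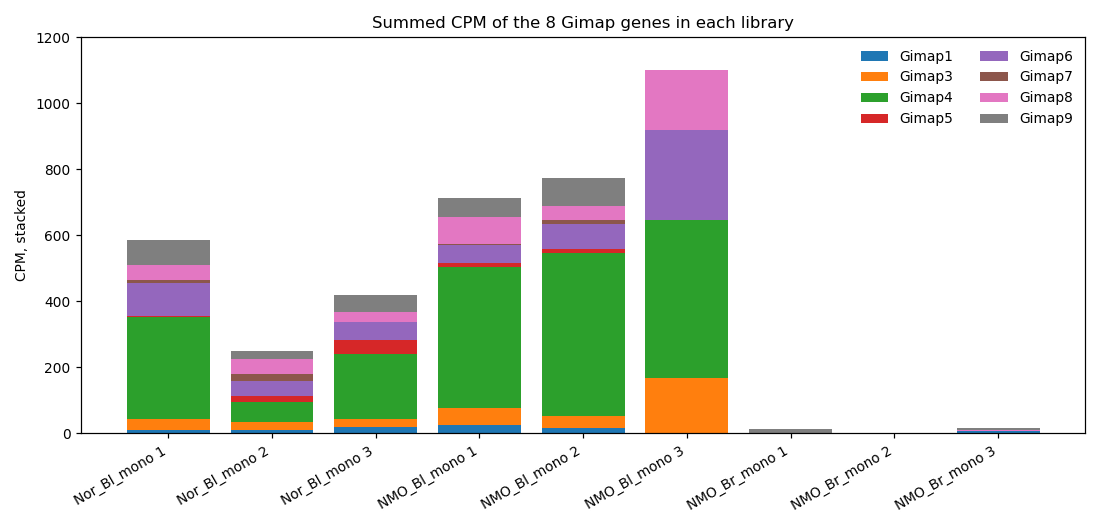
Summed CPM of the 8 Gimap genes (vertical axis, linear from 0) in each of the 9 libraries (horizontal axis), stacked by gene. The blood libraries reach 250 to 1101 CPM, the brain libraries 0.851 to 15.8 CPM, and the bar of NMO_Bl_mono replicate 3 holds 4 of the 8 genes.

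In reads, the Nor_Bl_mono libraries held 4095, 2379 and 4130 counts of the family, the NMO_Bl_mono libraries 5112, 7137 and 12185, and the NMO_Br_mono libraries 99, 9 and 160. Of the 8 members, 7 or 8 were above the floor in each Nor_Bl_mono library. In NMO_Bl_mono, 8 were above it in replicates 1 and 2, and 4 in replicate 3. In NMO_Br_mono, 1 member passed it in replicate 1, 1 in replicate 2 and 3 in replicate 3. The brain reads came from few genes. Gimap9 gave all 99 reads of replicate 1, Gimap4 gave 6 of the 9 reads of replicate 2, and Gimap9, Gimap1 and Gimap8 gave those of replicate 3.

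The fitted log2 fold change of NMO_Br_mono against NMO_Bl_mono was negative for 8 of 8 members, with a median of -8.87, beside a median of 0.05 over all 10107 genes tested. Because 3 members had no brain read, the fit depends on a prior count for them. With these set to the bound that the floor allows, the median was -5.35. Against Nor_Bl_mono, the median was -9.65 (-5.54 at the bound), beside -0.12 over all genes. Both comparisons share the brain libraries. Every NMO_Br_mono library lay below every NMO_Bl_mono library for 4 of 8 members (Gimap3, Gimap4, Gimap6 and Gimap8), an order seen in 6.05% of the genes tested. It held for 8 of 8 without NMO_Bl_mono replicate 3, against 20.3% of the genes tested. Below Nor_Bl_mono, the same order held for 7 of 8 members, all but Gimap7, against 9.37% of the genes tested. Below both blood groups at once, it held for 4 of 8 (3.13% of the genes tested). These orders are part of how the members were chosen.

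All 8 members passed the filter on low counts, and 3 of them (Gimap3, Gimap5 and Gimap7) had no brain read. All 8 averaged at least 5 CPM in both blood groups. Of the 7549 genes at that level, 3.11% had no brain read.

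**Figure D2:**
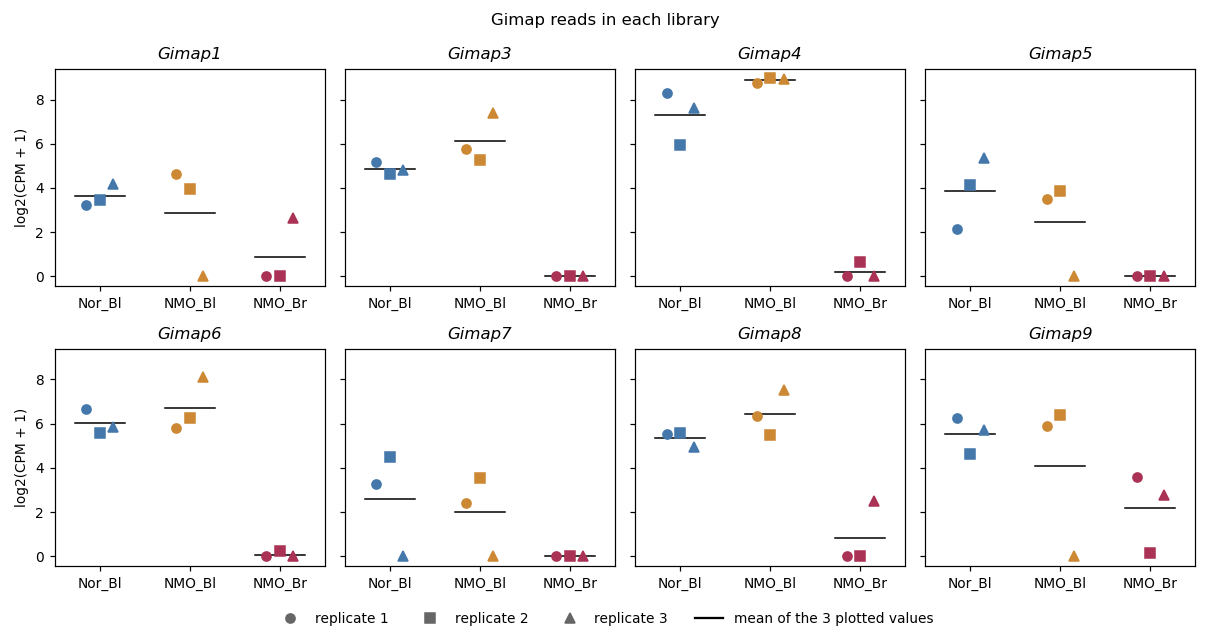
log2(CPM + 1) of each Gimap gene (vertical axis) in the 3 groups (horizontal axis), with a symbol for each library by replicate number and a line at the mean of the 3 plotted values. Gimap3, Gimap4 and Gimap6 are high in all 6 blood libraries and at or near 0 in the 3 brain libraries, and Gimap1, Gimap5, Gimap7 and Gimap9 are at 0 in NMO_Bl_mono replicate 3.

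Among the members with a membrane anchor, Gimap3 had reads in all blood libraries and none in the brain. Gimap3, which binds proteins of the Bcl2 family and is the closest mouse relative of Gimap5, measured 34.8, 24.2 and 26.9 CPM in Nor_Bl_mono and 52.5, 37.1 and 167 CPM in NMO_Bl_mono. It had no count in the 3 NMO_Br_mono libraries. All NMO_Bl_mono libraries lay above all Nor_Bl_mono libraries. Its level in the brain was at least 280-fold lower than in NMO_Bl_mono and at least 93.5-fold lower than in Nor_Bl_mono, at a floor of 3 counts per library. Without NMO_Bl_mono replicate 3, the first of these bounds was 146-fold.

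Gimap5, without which mice and rats lose most of their peripheral T cells, measured 3.43, 16.3 and 40.0 CPM in Nor_Bl_mono. In NMO_Bl_mono it measured 10.3, 13.4 and 0 CPM, and it had no count in NMO_Br_mono. The blood groups overlapped, and the spread between the Nor_Bl_mono libraries was nearly as large as their mean (19.9 ± 18.6 CPM, SD, n = 3). The brain level was at least 25.8-fold lower than in NMO_Bl_mono (38.8-fold without NMO_Bl_mono replicate 3) and at least 65.1-fold lower than in Nor_Bl_mono.

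Gimap1, which is needed for the development and upkeep of T and B cells, measured 8.44, 10.1 and 17.3 CPM in Nor_Bl_mono and 23.8, 14.5 and 0 CPM in NMO_Bl_mono. In NMO_Br_mono it was at 0 in replicates 1 and 2 and at 5.24 CPM (53 counts) in replicate 3. The brain libraries thus lay below Nor_Bl_mono and overlapped NMO_Bl_mono through its replicate 3. The fitted log2 fold change of NMO_Br_mono against NMO_Bl_mono was -2.86 (SE 3.26), and -9.87 without NMO_Br_mono replicate 3. Without NMO_Bl_mono replicate 3, the summed counts gave a level 10.4-fold lower in the brain (95% exact counting interval 7.72 to 14.2). An antisense gene, Gimap1os, overlaps Gimap1. How the counting treated strand is not given in the sources used here, so reads of the pair cannot be told apart.

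Among the other members, Gimap4 held the most family reads in blood. Gimap4, which has been linked to the death of T cells after activation and to cytokine secretion, measured 309, 61.0 and 197 CPM in Nor_Bl_mono and 428, 494 and 479 CPM in NMO_Bl_mono. In NMO_Br_mono it had 0, 6 and 0 counts, or at most 0.567 CPM. It was thus higher in all 3 NMO_Bl_mono libraries than in any Nor_Bl_mono library, and the NMO_Bl_mono libraries lay close together (467 ± 34.9 CPM, SD, n = 3) where those of Nor_Bl_mono did not (189 ± 124 CPM, SD, n = 3). From the summed counts scaled by library size, Gimap4 was 2321-fold lower in NMO_Br_mono than in NMO_Bl_mono (95% exact counting interval 1066 to 6326), and 2294-fold lower without NMO_Bl_mono replicate 3. Such intervals take each read as an independent count and leave out the spread between pools. The reads carry no molecular identifiers here, so copies of 1 molecule are counted apart. Gimap4 took 24.4% to 64.0% of the family reads of a blood library. These 3ʹ reads were not divided by a transcript length, so such shares are not levels per gene.

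Gimap6, which binds a protein of the autophagy machinery, Gabarapl2, measured 100.1, 46.1 and 57.3 CPM in Nor_Bl_mono and 54.6, 74.9 and 274 CPM in NMO_Bl_mono. The brain libraries had 0, 2 and 0 counts. Both blood groups overlapped, and all 6 blood libraries were above the brain. The ratio to NMO_Bl_mono was 2212-fold lower in the brain, with a counting interval from 612 to 18269. Leaving out NMO_Bl_mono replicate 3, where it was highest, the mean of NMO_Bl_mono went from 134 to 64.7 CPM, close to the 67.9 CPM of Nor_Bl_mono, and the ratio to the brain was 976-fold (interval 269.6 to 8070).

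Gimap8, the longest protein of the family, with several GTP-binding domains, measured 45.8, 46.8 and 29.4 CPM in Nor_Bl_mono and 80.8, 44.3 and 181 CPM in NMO_Bl_mono. In NMO_Br_mono it was at 0 in replicates 1 and 2 and at 4.75 CPM (48 counts) in replicate 3. All blood libraries lay above all brain libraries, and the blood groups overlapped. In the brain it was 67.2-fold lower than in NMO_Bl_mono (95% exact counting interval 50.5 to 91.3), or 37.1-fold lower without NMO_Bl_mono replicate 3, with all of its brain reads in 1 library.

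Gimap9 was the member with the most brain reads. It measured 76.1, 23.9 and 52.1 CPM in Nor_Bl_mono, and 57.8, 83.0 and 0 CPM in NMO_Bl_mono. In NMO_Br_mono it measured 11.1, 0.0946 and 5.84 CPM, from 99, 1 and 59 counts. The brain libraries lay below all Nor_Bl_mono libraries, and below NMO_Bl_mono only when its replicate 3 was left out. The summed ratio was 8.0-fold lower than in NMO_Bl_mono (95% exact counting interval 6.77 to 9.50), and 13.4-fold lower without NMO_Bl_mono replicate 3.

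Gimap7, which is able to hydrolyse GTP as a homodimer, had few reads in all groups. It measured 8.58, 21.8 and 0 CPM in Nor_Bl_mono and 4.32, 10.7 and 0 CPM in NMO_Bl_mono, and had no count in the brain. Since a blood library of each group was also at 0, its groups overlapped in each comparison. By the means, it was at least 16.4-fold lower in NMO_Br_mono than in NMO_Bl_mono, and at least 24.6-fold lower without NMO_Bl_mono replicate 3.

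The comparison of both blood groups shows the family in circulating monocytes with and without the brain injection. The fitted log2 fold change of NMO_Bl_mono against Nor_Bl_mono was positive for 5 members and negative for 3, with a median of 0.54, beside -0.16 over all genes tested. The largest was that of Gimap3 (1.58, SE 1.41), followed by Gimap8 (1.33, SE 1.67), Gimap4 (1.31, SE 0.87) and Gimap6 (0.99, SE 1.12). Those of Gimap1 (0.10, SE 3.05) and Gimap9 (-0.11, SE 1.95) were near 0, and those of Gimap7 (-1.01, SE 3.37) and Gimap5 (-1.33, SE 2.96) negative. Every NMO_Bl_mono library lay above every Nor_Bl_mono library for 2 of 8 members, Gimap3 and Gimap4, against 2.34% of the genes tested. Without NMO_Bl_mono replicate 3, it held for the same 2 members, against 11.6% of the genes tested. Every NMO_Bl_mono library lay below every Nor_Bl_mono library for 0 of 8 members (4.45% of the genes tested). Without replicate 3, the means of Gimap4, Gimap3 and Gimap8 were 2.44-fold, 1.57-fold and 1.54-fold those of Nor_Bl_mono. Those of Gimap1 and Gimap9 were 1.605-fold and 1.39-fold, and those of Gimap6, Gimap7 and Gimap5 were 0.954-fold, 0.743-fold and 0.596-fold. Over all genes, edgeR called 0 higher (0% of the genes tested) and 0 lower (0%) in this comparison, with 47 and 25 at an unadjusted p under 0.05 and 48 and 21 called by DESeq2.

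Within NMO_Bl_mono, replicate 3 split the family. Gimap1, Gimap5, Gimap7 and Gimap9 had no read in it, although they measured 4.32 to 83.0 CPM in replicates 1 and 2. Gimap3, Gimap6 and Gimap8 were at 3.73, 4.23 and 2.90 times the mean of the other 2 libraries, and Gimap4 at 1.04 times. Of all 5533 genes within the range of levels of the first 4 members, 62.8% were also at 0 in this library, and the others had a median of 1.44 times the mean of replicates 1 and 2. At the levels of the other 4 members, 26.7% of 2933 genes were at 0, and the others had a median of 0.821 times.

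The genes around the cluster were measured in the same libraries. Of 37 genes of the table within 250 kb of the outermost members, 18 had an entry, and 6 had enough reads to be tested. None was called in NMO_Br_mono against NMO_Bl_mono, with adjusted p from 0.915 to 1 (edgeR's quasi-likelihood test, Benjamini-Hochberg over 10107 genes, where 0.228% were called lower and 0.0198% higher). At an unadjusted p under 0.05 it was also 0, and 0 were called by DESeq2. Tmem176b and Tmem176a, which encode a pair of membrane proteins of myeloid cells, are the nearest neighbours with reads after Gimap3. Tmem176b measured 157, 257 and 259.9 CPM in Nor_Bl_mono, 218, 322 and 0 CPM in NMO_Bl_mono and 411, 177 and 327 CPM in NMO_Br_mono. Its brain and blood libraries overlapped, with a log2 fold change of 0.76 (SE 1.31) against NMO_Bl_mono. Tmem176a measured 45.1, 29.8 and 0 CPM in NMO_Bl_mono and 84.7, 79.3 and 17.7 CPM in NMO_Br_mono, with a log2 fold change of 1.28 (SE 1.68). Both had no read in NMO_Bl_mono replicate 3, as did Gimap1, Gimap5, Gimap7 and Gimap9. On the other side of the cluster, Zfp862-ps, a pseudogene, had no brain read and 15 counts in NMO_Bl_mono, with a fitted log2 fold change of -5.71 (SE 3.37, adjusted p = 0.915, edgeR). Zfp467 (1.52, SE 2.27), Repin1 (2.13, SE 3.73) and Lrrc61 (-0.81, SE 3.07) had log2 fold changes smaller than their SE.

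**Figure D3:**
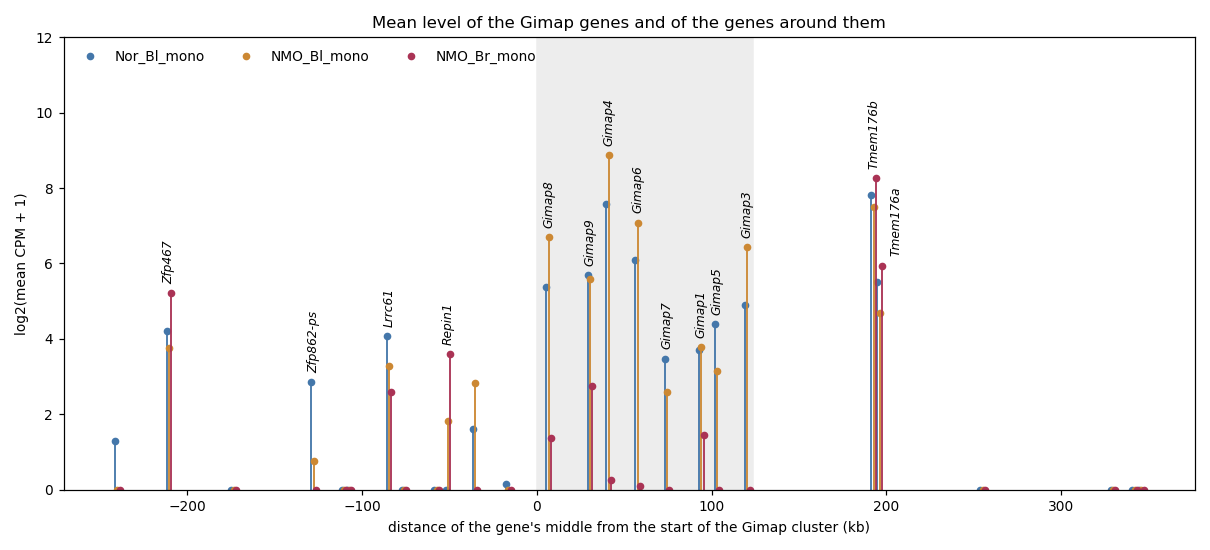
Mean level of each gene in the 3 groups, as log2(mean CPM + 1) (vertical axis), against the distance of its middle from the start of the Gimap cluster in kb (horizontal axis, colours mark the groups, and the grey band spans the 124 kb of the cluster). Points of the 3 groups are drawn side by side, and only the members and the 6 tested neighbours are named. The brain means do not pass 5.69 CPM in the cluster (Gimap9), while Tmem176b reaches 305 CPM in the brain.

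The family is known from lymphocytes, so markers of the other cells that the gate could hold were read in the same libraries. The 23 NK cell markers summed to 6356, 4645 and 5049 CPM in Nor_Bl_mono, to 5534, 5727 and 6125 CPM in NMO_Bl_mono, and to 109, 790.2 and 331 CPM in NMO_Br_mono. All blood libraries lay above all brain libraries for this sum, as they did for the Gimap sum. In NMO_Br_mono against NMO_Bl_mono, 6 of 23 NK markers fell at an adjusted p under 0.05 (edgeR), 0 rose, and 14 were lower at an unadjusted p under 0.05. Over all 10107 genes tested, 0.228% were called lower and 0.0198% higher. At an unadjusted p under 0.05, 3.84% were lower and 1.48% higher. These shares also stand beside the counts of the other lists in this comparison. The median log2 fold change was -3.99. The 6, with adjusted p from 0.000598 to 0.0337 (edgeR), were Klra8 (log2 fold change -11.92, SE 1.14), a Ly49 receptor of NK cells, Ccl5 (-3.93, SE 0.57), a chemokine, Txk, a kinase of T and NK cells, Nkg7 (-3.84, SE 0.58) and Gzmb (-7.41, SE 1.34), of cytotoxic granules, and Il2rb (-7.38, SE 1.32), a receptor chain for interleukin 2. Txk measured 59.1, 63.1 and 316 CPM in NMO_Bl_mono and had no brain read. It was thus at least 477-fold lower, or 199.6-fold without NMO_Bl_mono replicate 3. Against Nor_Bl_mono, 7 NK markers fell, these 6 and Klra7, and 0 rose, where 0.218% of the genes tested were called lower and 0.0297% higher. The defining NK genes were still read in the brain, each at a lower mean than in NMO_Bl_mono. Klrd1 was at 38.1 CPM in NMO_Br_mono and 124 CPM in NMO_Bl_mono, and Prf1 at 22.6 and 27.4 CPM. Ncr1 was at 10.97 CPM in NMO_Br_mono and 30.7 CPM in NMO_Bl_mono, and Klrb1c at 1.81 and 118 CPM. Prf1 and Ncr1 each had 1 library at 0 in each of these groups. Klrb1c had 1 library at 0 in NMO_Br_mono.

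The T cell markers had reads in all groups. They summed to 238 to 549 CPM in Nor_Bl_mono, 314 to 437 CPM in NMO_Bl_mono and 53.2 to 210 CPM in NMO_Br_mono, so that each blood library lay above each brain library. Of 26, 17 were tested and 0 were called by edgeR, with 4 lower and 0 higher at an unadjusted p under 0.05. Their median log2 fold change against NMO_Bl_mono was -5.54, or -3.11 with unread genes at their bound. Cd3e, a part of the T cell receptor complex, had 123 counts in Nor_Bl_mono, 1 in NMO_Bl_mono and none in NMO_Br_mono. Of the other parts of this complex, Cd3d had 294, 26 and 34 counts in these groups and Cd3g 120, 367 and 70. Cd4 had 1 count in Nor_Bl_mono and none in NMO_Bl_mono or NMO_Br_mono. Other T cell genes had reads in blood. Cd2, an adhesion molecule, was at 71.6 CPM in NMO_Bl_mono and 5.54 CPM in NMO_Br_mono. Lck, a kinase of T cell receptor signalling, was at 48.3 and 7.62 CPM. Cd247, a signalling chain of that receptor, was at 36.3 and 0.0315 CPM. Lef1, a transcription factor, was at 46.2 and 44.3 CPM, with most of each mean from replicate 3. Its libraries measured 26.6, 12.6 and 99.5 CPM in NMO_Bl_mono and 5.06, 10.3 and 118 CPM in NMO_Br_mono. In all, 14 of 26 were at 0 in every brain library, and 5 of 26 in every NMO_Bl_mono library. Of the 7549 genes with a mean of at least 5 CPM in both blood groups, 3.11% had no brain read. Not all T cell markers reached that level.

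For B cell markers, the sums overlapped, at 56.9 to 317 CPM in Nor_Bl_mono, 32.8 to 241 CPM in NMO_Bl_mono and 38.5 to 122 CPM in NMO_Br_mono. Of 12 tested, 0 were called, with 1 lower and 0 higher at an unadjusted p under 0.05. Cd79b, a part of the B cell receptor, was at 13.5 CPM in NMO_Br_mono and 6.19 CPM in NMO_Bl_mono, and Cd72, a B cell surface protein, at 33.4 and 42.3 CPM. Platelet markers were lower in every brain library than in every blood library. They summed to 636 to 3973 CPM in Nor_Bl_mono, 665 to 3379 CPM in NMO_Bl_mono and 39.6 to 69.0 CPM in NMO_Br_mono. Of 15 tested, 2 fell, with 9 lower at an unadjusted p under 0.05. The 2 were Ppbp (log2 fold change -12.09, SE 1.55), a platelet chemokine, and Nrgn (-13.44, SE 1.38), a calmodulin-binding protein. In all, 7 of 16 were at 0 in every brain library, and 0 of 16 in every NMO_Bl_mono library. The part of NK cells, T cells, B cells and platelets in the Gimap difference was not tested.

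**Figure D4:**
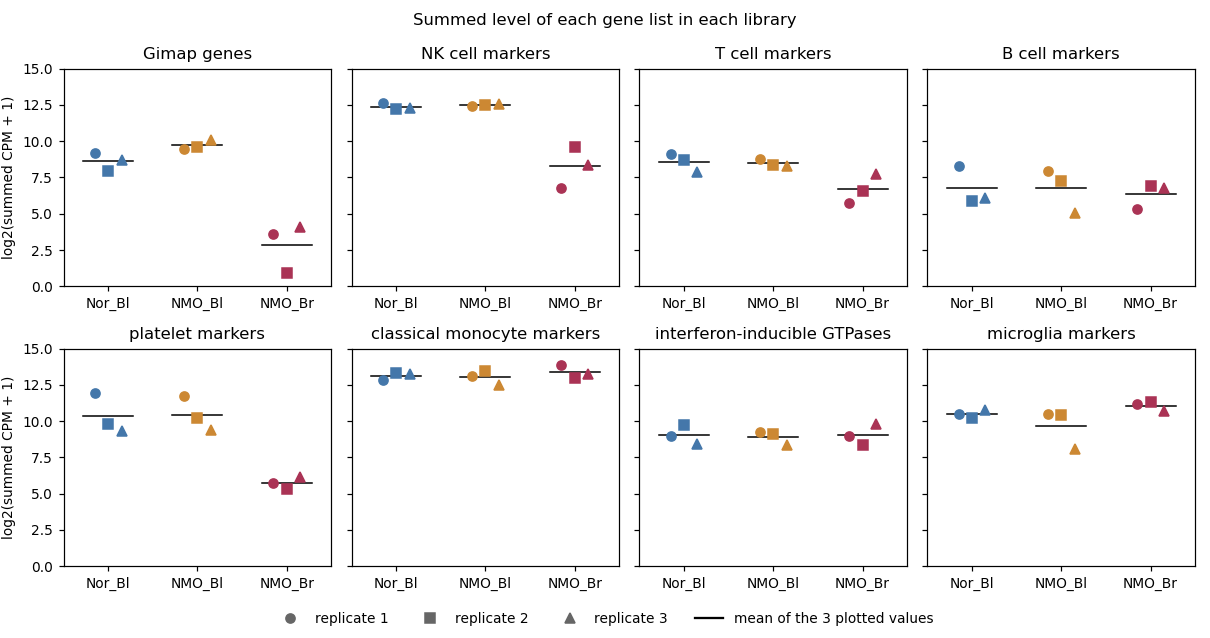
log2 of the summed CPM + 1 (vertical axis) of the Gimap genes and of 7 lists in the 3 groups (horizontal axis), with a symbol for each library by replicate number and a line at the mean of the 3 plotted values. The Gimap, NK cell, T cell and platelet sums of all brain libraries lie below those of all blood libraries, and the B cell, classical monocyte and interferon-inducible GTPase sums overlap.

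Markers of monocytes were near their blood level in the brain, by their medians. Of 20 classical markers, 0 were called by edgeR in NMO_Br_mono against NMO_Bl_mono (1 higher and 1 lower at an unadjusted p under 0.05), and the median log2 fold change was 0.32. Of 17 non-classical markers, 0 were called (0 higher and 1 lower unadjusted), with a median of 0.57. Microglia markers had a median of 2.89 over 11 genes, with 0 called and 5 higher at an unadjusted p under 0.05, and endothelial markers 1.84 over 8 genes, with 0 called and 1 higher unadjusted. Neutrophil markers had a median of 2.77 over 10 genes, with 0 called and 2 higher and 1 lower unadjusted. Of these 11 microglia markers, 1 was fitted lower in the brain, Selplg, at 168 CPM in NMO_Br_mono and 219 CPM in NMO_Bl_mono. Tmem119, a defining microglia gene, did not pass the filter on low counts. It had no read in any blood library, and its mean of 32.9 CPM in NMO_Br_mono includes 1 library at 0.

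The interferon-inducible GTPases (guanylate-binding proteins, immunity-related GTPases, Mx proteins and Gvin1) are another family of GTP-binding proteins of immune cells. They summed to 335 to 863 CPM in Nor_Bl_mono, 327 to 620 CPM in NMO_Bl_mono and 332 to 874 CPM in NMO_Br_mono, so that all 3 groups overlapped. Of 15 tested, 0 were called by edgeR (0 higher and 2 lower at an unadjusted p under 0.05), and the median log2 fold change of NMO_Br_mono against NMO_Bl_mono was -0.14. Gvin1, a very large GTPase, was at 144 CPM in NMO_Br_mono and 216 CPM in NMO_Bl_mono, and Mx1, an antiviral GTPase, at 119 and 22.8 CPM.

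Genes that Gimap proteins bind or that act on cell survival were also read. Of 17 tested, 0 were called (1 higher and 1 lower unadjusted), with a median log2 fold change of 0.23. Mcl1, a survival factor of the Bcl2 family, was at 705 CPM in NMO_Br_mono and 876 CPM in NMO_Bl_mono. Bcl2l11, which encodes the death factor Bim, had a log2 fold change of -1.33 (SE 0.56, adjusted p = 0.802, edgeR). Of 20 lymphocyte transcription factors, 0 were called (0 higher and 7 lower unadjusted), with a median of -1.08. Over all genes tested, 3.84% were lower and 1.48% higher unadjusted. Id2, a factor needed for NK cells and innate lymphocytes, was at 874 CPM in NMO_Br_mono and 1829 CPM in NMO_Bl_mono (adjusted p = 0.354, edgeR).

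The genes whose level ran most like the Gimap sum were looked for among 7483 genes with a mean of at least 10 CPM, by Pearson's r of log2(CPM + 1) over the 9 libraries. These 9 points fall into blood and brain, share the library's depth and dropped genes with the Gimap sum, and give no p. The genes were chosen for this pattern, so their values are a description, with no test. The 10 genes were H2-T22, Irf8, Hbb-b1, Atp2a3, Hbb-bs, Spry2, Qrfp, Klra21, Srgap3 and Ddx24, with r from 0.96 to 0.98 and Spearman's rho from 0.70 to 0.92. With a pseudocount of 0.1, 7 of the 10 were again among the first 10, and with Spearman's rho 0 were.

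Irf8, a transcription factor of monocytes, dendritic cells and B cells, was at 1488 ± 183 CPM in Nor_Bl_mono, 1520 ± 309 in NMO_Bl_mono and 197 ± 64.0 in NMO_Br_mono (SD, n = 3 each). Its fitted log2 fold change of NMO_Br_mono against NMO_Bl_mono was -2.95 (SE 0.34). Unlike Gimap4, it kept over 100 CPM in each brain library. Klra21, a gene of the Ly49 receptors of NK cells whose copies resemble each other, had 1 brain count and 149 ± 20.5 CPM in NMO_Bl_mono (log2 fold change -11.65, SE 1.42). The adult beta globins Hbb-b1 and Hbb-bs, which are nearly identical, so that their values are uncertain, were at 948 and 950.4 CPM in NMO_Bl_mono and at 10.2 and 10.6 CPM in NMO_Br_mono. Red cell lysis was part of the brain preparation, and the part of red cells in these values was not tested.

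The counting kept reads that align to several places, so shared sequence between members could move reads among them. In the last 500 bases of the GENCODE protein-coding transcripts, no stretch of 75 bases, the read length, was shared by any 2 members. Only Gimap1 shared some with another gene, 11 of 856 stretches (1.29%) with Gm10310.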

How the data were processed

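QuantSeq 3ʹ libraries (single-end, 75 bases) of 9 pools of sorted monocytes were analysed. The authors aligned reads with Bowtie2 and used bedtools to count them, reads with several alignments included. They deposited raw read counts per gene symbol. The submitters' processing notes name mm10. Versions and the annotation are not given in the sources used here. Groups came from the sample labels.

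Each library lists 23282 entries. For 35 symbols with several entries, the highest count decided which was kept. None is a Gimap gene. In R 4.3.3, the 10107 genes that passed filterByExpr were fitted with edgeR 4.0.16 (TMM factors, glmQLFit and glmQLFTest, all 9 libraries and 3 groups in one fit), with Benjamini-Hochberg adjustment over all of them and calls at an adjusted p under 0.05. The p-values measure the spread between pools. CPM are on TMM-scaled library sizes. A fold against a group with no read is a bound at 3 counts per library. The fit was also run on simulated counts, at dispersions below the 2.87 fitted to these data. That run does not show how the fit performs at the spread seen here.

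The members, the 12 gene lists and the tests were chosen with earlier results of these data known. The text names all members, the 6 neighbours with enough reads to be tested (of 37 within 250 kb, 18 had an entry), the 10 genes most like the family sum, and from each list the genes called and some of up to 4 with the highest mean CPM. Defining markers (Cd3d, Cd3e, Cd3g, Cd4, Klrb1c, Klrd1, Ncr1, Prf1 and Tmem119) were added after their values were seen. Upstream sequences are from a RefSeq table of GRCm38.p6, where all 8 members matched. Protein sequences were not used here. Alternatives were RLE factors, library sizes alone, no Rn45s, no filter or at least 10 counts in at least 3 libraries, 2 groups only, a replicate block, each library left out, DESeq2 1.42.0, limma 3.58.1 (voom with sample quality weights), summed duplicate entries, and for similarity a pseudocount of 0.1 and Spearman's rho.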

Additional observations from a re-analysis of the deposited data

How the results depend on the processing

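The fitted log2 fold change of each member in NMO_Br_mono against NMO_Bl_mono was negative in all 150 values computed under the alternatives, from -15.05 to -2.05. Their median, -8.87, was -10.04 when NMO_Br_mono replicate 3 was left out and -7.95 when NMO_Bl_mono replicate 2 was, the lowest and highest of the fits without a library, and -7.58 with voom. Against Nor_Bl_mono it ranged from -10.01 to -9.14 with a library left out, and was -9.09 with the replicate block, -9.36 with DESeq2 and -7.28 with voom. Members whose brain libraries all lay below NMO_Bl_mono numbered 4 to 8, with 8 only without NMO_Bl_mono replicate 3.

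Counts of called genes moved more. In NMO_Br_mono against NMO_Bl_mono (2 higher, 23 lower), 4 were higher by library sizes alone, 39 higher and 71 lower with no filter, 1 and 6 with 2 groups only, 77 and 259 with DESeq2, and 44 and 7 with voom. With a library left out, 0 to 5 were higher and 14 (without Nor_Bl_mono replicate 3) to 33 (without NMO_Br_mono replicate 1) lower. In NMO_Br_mono against Nor_Bl_mono (3 higher, 22 lower), 5 were higher with RLE factors, 8 by library sizes alone, 43 higher and 72 lower with no filter, 15 and 8 with 2 groups only, 118 and 248 with DESeq2, and 27 and 6 with voom. With a library left out, 1 to 27 were higher and 10 to 35 lower, both highest without NMO_Bl_mono replicate 3. In NMO_Bl_mono against Nor_Bl_mono (0 and 0), 1 and 1 were called with no filter and 48 and 21 with DESeq2. Of the list genes (0 higher, 8 lower), 4 and 20 were called with no filter, 3 lower with 2 groups only, 5 and 28 with DESeq2, 2 and 1 with voom, and 0 to 1 and 6 to 11 with a library left out. The cause of these moves was not tested.

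Klra8, Nrgn and Ppbp lost the call with voom alone, of 19 alternatives. Ccl5 and Txk lost it with voom and with 2 groups only, and Nkg7 also without NMO_Br_mono replicate 3. Gzmb and Il2rb lost it in 5 and 4 alternatives, both without Nor_Bl_mono replicate 3 and without NMO_Br_mono replicate 2, and Gzmb also without NMO_Bl_mono replicate 2. With a library left out, the log2 fold change ranged from -10.59 to -6.81 for Il2rb and from -9.66 to -6.67 for Gzmb, both lowest without NMO_Br_mono replicate 3. No gene near the cluster was called under any alternative. Same-numbered libraries of different groups deviated with a correlation of -0.0102 to 0.116 over 9 pairs, 1 of them over 0.1. The best match, among the 3 libraries of another group, had the same number in 11 of 18 cases. Whether the numbers pair the pools cannot be told from these values, and the main fit does not pair them. With the replicate block, 4 genes were higher and 18 lower against NMO_Bl_mono, 5 and 17 against Nor_Bl_mono, and the log2 fold change against NMO_Bl_mono moved to -5.86 for Gimap1 and from -6.00 to -7.82 for Gimap8. With RLE factors, the median of all genes in NMO_Br_mono against NMO_Bl_mono moved to 0.13. The common dispersion of the fit was 2.87, and for members with no read the floor of 0.271 to 0.429 CPM limits what can be seen.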
